A study of Mus musculus with 62 samples.

Results

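The 30 genes described here encode components, receptors and regulators of the complement system. They were taken by symbol from a table of 47643 gene symbols measured in mouse white adipose tissue. Cfd, which encodes factor D (adipsin), was left out of the 30 as an adipokine and is given with the other complement genes near the end. Of the 30, 29 had a mean of at least 0.5 TPM (a transcript level corrected for length and library size) over the 62 libraries and were tested, and C5ar2, with a mean of 0.459 TPM, was not. Female mice, aged 2 months, were given a mock treatment (Con) or melanoma cells, which were either of a cachectic kind (CAC) or of a non-cachectic one (NCAC). White adipose tissue was taken 2, 4, 6 or 8 weeks later, which gives 12 groups of 5 libraries, except for 7 in CAC at 8 weeks. The series text describes the animals as NCI Ath/nude mice, a strain without a thymus whose innate immune cells are kept, whereas the strain label of each sample reads C57BL6/J, and this conflict was not settled here. The melanoma lines have no name in the labels, and the treatment label of all samples names the cachectic cells, so that the arm was read from each sample's description.

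Complement is a cascade of serum and cell-surface proteins that marks targets and recruits immune cells. The classical pathway starts with C1q and its proteases C1r and C1s, the lectin pathway with collectins and the MASP proteases, and both cleave C4 and C2. The alternative pathway runs through C3, factor B, factor D and properdin, and all routes meet at C3. Products of C3 and C5 act on receptors of myeloid cells, and C5b with C6, C7, C8 and C9 forms the membrane attack complex. Host cells limit the cascade with membrane proteins such as CD55, CD46 and CD59 and with soluble proteins such as C1 inhibitor, factor I, clusterin and vitronectin. Most circulating complement is made by the liver, and adipose tissue is known for its own C3, factor B and factor D.

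Every library sums to 1000000 TPM and the number of reads is unknown, so no counting interval is given. Adipoq, the adiponectin gene of adipocytes, lay between 1789 and 6978 TPM in all 62 libraries, which fits the tissue label. In 16 of the 62 libraries the summed level of 4 uroplakin genes, markers of urothelium, was over 100 TPM, and 11 of these 16 were CAC libraries (3, 2, 3 and 3 at 2, 4, 6 and 8 weeks). Summed levels of 8 fibroblast and progenitor markers had medians of 322 and 371 TPM in CAC at 6 and 8 weeks, against 713 and 1027 TPM in Con. Their part in the results below was not tested, apart from the fits without the uroplakin libraries given beside the values. In bulk tissue, fewer cells of a type and less RNA per cell cannot be told apart.

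Part of the complement genes rose in CAC tissue at 6 and 8 weeks, led by the C4 genes, while most of the 29 did not pass the test. Each comparison was tested with limma on log2(TPM + 1), and a gene is said to have risen or fallen where its adjusted p was under 0.05. Against Con, 2 of 29 rose at 6 weeks (C4a and C4b), where 0.309% of all genes tested rose and 0.0480% fell. At 8 weeks 7 of 29 rose (C4a, C4b, C3, C6, C7, Masp1 and Clu), where 1.08% of all genes rose and 1.99% fell. None of the 29 fell in either week. Against NCAC, 9 of 29 rose and 1 fell at 6 weeks, beside 4.94% and 0.844% of all genes. At 8 weeks against NCAC 3 of 29 rose (C4a, C4b and C7), beside 0.343% of all genes higher and 0.185% lower. The comparisons of CAC with Con and with NCAC share the CAC libraries. The split of all genes depended on the scaling: at 6 weeks against NCAC 720 of 843 called genes were higher, but 536 of 999 with median-ratio rescaling and 331 of 666 with the mitochondrially encoded genes left out, where 7 and 6 of the 29 rose and 2 and 1 fell. At 8 weeks against Con 158 of 448 were higher, but 613 of 1452 with median-ratio rescaling, where 7 of the 29 rose and 1 fell. With the mitochondrially encoded genes left out 250 of 2061 were higher, where 7 of the 29 rose and 2 fell. The median change of all genes was -0.08 in the main fit there, 0.00 with rescaling and -0.18 with those genes left out.

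Pooling the 2 late weeks in 1 fit of all 62 libraries gave more calls in all genes and in the 29. For the mean of 6 and 8 weeks, CAC against Con, 9 of 29 rose and 3 fell, beside 6.69% and 7.02% of all genes. The median change of the 29 was 0.44 on the log2 scale, against -0.06 for all genes tested. CAC against NCAC gave 9 higher and 2 lower, beside 9.15% and 4.40% of all genes, with medians of 0.44 and 0.05. Averaged over all 4 weeks, 9 rose and 4 fell against Con (all genes 5.24% and 6.13%), and 8 rose and 3 fell against NCAC (all genes 6.87% and 5.05%). The 2 lower against NCAC, Cd55 and Colec12, make 6.90% of the 29, so the share that fell there is near that of all genes. The late mean without mitochondrially encoded genes gave 9 higher and 5 lower against Con, among 807 higher of 4146 genes called (975 of 1998 before), and 9 higher and 3 lower against NCAC, among 1002 higher of 2830 (1334 of 1975 before). With median-ratio rescaling it gave 11 higher and 2 lower against Con, among 1820 higher of 3698 genes called. Against NCAC rescaling gave 10 higher and 2 lower, among 1704 higher of 3331. Leaving out the mitochondrially encoded genes moved the median change of all genes against Con from -0.06 to -0.15.

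Markers of other cell types also rose in the late mean. Against Con 3 of 4 neutrophil markers tested and 1 of 4 uroplakin genes rose, and against NCAC 1 of 4 neutrophil, 3 of 5 endothelial and 3 of 4 uroplakin genes did. Against Con 0 of 5 endothelial markers rose and 1 fell. Of the adipocyte markers 2 of 6 fell in both comparisons, and of the hepatocyte markers 1 of 5 fell in both, and none of either list rose. Summed levels of 5 neutrophil markers were 17.1 to 57.2 and 7.03 to 56.3 TPM in CAC at 6 and 8 weeks, against 5.96 to 75 and 8.63 to 24.7 TPM in Con, and Mmp8 was listed at 0 in 5 of the 62 libraries. Endothelial sums (5 markers) were 239 to 352 and 199 to 476 TPM in CAC, against 166 to 279 and 233 to 295 TPM in NCAC. Apart from the fits without the uroplakin libraries, the part of these cells in the complement results was not tested.

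**Figure D1:**
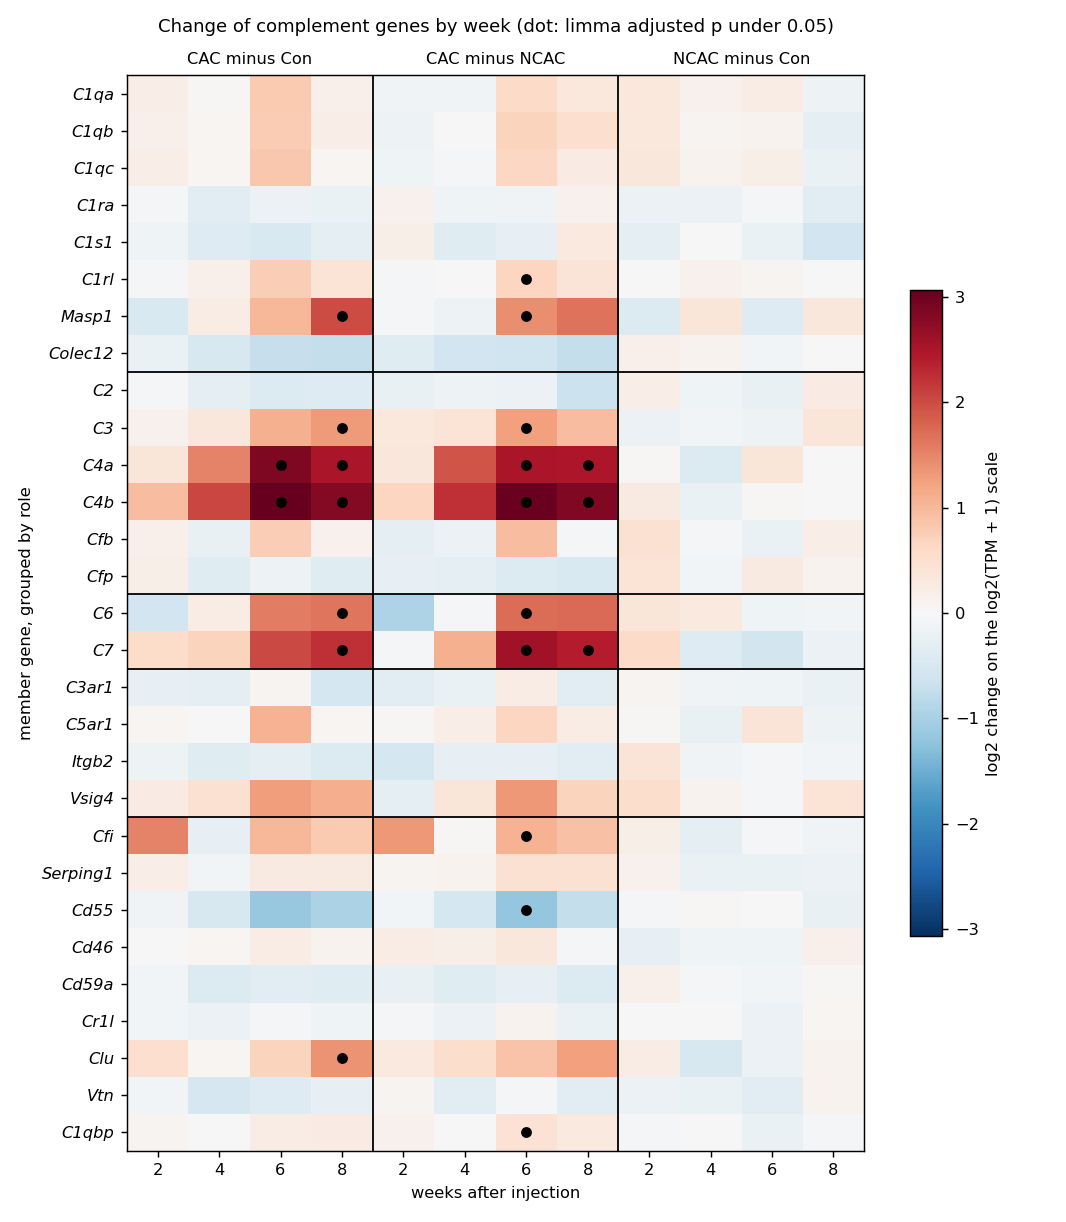
Change of the 29 tested complement genes for the 4 weeks and 3 pairs of arms, on the log2(TPM + 1) scale, grouped by role (rows) and week (columns), with a dot where the limma adjusted p was under 0.05. The dots lie at 6 and 8 weeks in the comparisons of CAC, with 2 and 7 against Con and 10 and 3 against NCAC, and there is none in NCAC against Con.

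C4 is the substrate that the classical and lectin pathways cleave together, and its genes showed the largest rises of the 29 in both late weeks against Con. C4b (chr17:34728380-34743882, minus strand, GRCm38) and C4a (chr17:34809092-34823464, minus strand) lie 65.21 kb apart. C4a is known as the gene of the related sex-limited protein, but the annotation used for the positions lists it as a processed transcript and C4b as protein coding. The longest transcripts of both share 23.5% of the 75-base windows of C4b exactly, so that reads may have been divided between them and each is uncertain alone. C4a made up between 0.622% and 6.05% of the sum of both.

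At 6 weeks the CAC libraries had C4b levels of 879, 1175, 977, 826 and 762 TPM, in replicate order. Con libraries of that week had 112, 43.9, 43.9, 228 and 299.5 TPM, and NCAC libraries 70.0, 109.7, 330.5, 120.4 and 55.1 TPM. All 5 CAC libraries were above all 10 others. The rise over Con was 3.06 (SE 0.50) on the log2(TPM + 1) scale, or 8.36-fold (limma adjusted p = 0.0282), and the rise over NCAC was 3.03 (SE 0.40) (adjusted p = 0.00372). The call against Con was lost, with adjusted p-values up to 0.0851, when any 1 of the 5 CAC libraries or replicate 1 or 3 of Con was left out, and the call against NCAC was kept in each such fit.

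At 8 weeks C4b in the 7 CAC libraries was 247, 960.2 and 1568 TPM (lowest, median and highest). Con libraries had 204, 189, 51.5, 172 and 106 TPM, and NCAC libraries 194, 216, 55.9, 143 and 103 TPM. Replicate 3 of CAC, at 247 TPM, lay just above the highest library of the other arms, and the other 6 were at 819 TPM or more. C4b rose by 2.82 (SE 0.45) against Con (7.06-fold, adjusted p = 0.0111) and by 2.83 (SE 0.45) against NCAC (adjusted p = 0.0205). The latter was lost, at up to 0.0778, without CAC replicate 4 or 7 or NCAC replicate 2, 4 or 5. C4b in CAC was 83.5 to 222 TPM at 2 weeks and 247 to 879.8 TPM at 4 weeks, against 26.6 to 113 and 38.1 to 441 TPM in Con, and passed in neither of these weeks.

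C4a, at a lower level, had the same order. In CAC at 6 weeks it was 28, 33, 33.1, 27 and 23.5 TPM, in Con 3.52, 2.82, 1.73, 1.43 and 8.70 TPM, and in NCAC 3.54, 3.66, 10.1, 4.57 and 2.09 TPM. The 8 week values were 6.71, 30.5 and 66.3 TPM (lowest, median and highest) in CAC, 4.89, 6.17, 2.48, 5.47 and 3.30 TPM in Con and 6.14, 6.81, 2.40, 4.83 and 2.92 TPM in NCAC. The groups did not overlap at 6 weeks, and at 8 weeks CAC replicate 3, at 6.71 TPM, was below the highest NCAC library. C4a rose 7.31-fold at 6 weeks (log2 change 2.87 (SE 0.33), limma adjusted p = 0.00313) and 5.66-fold at 8 weeks (log2 change 2.50 (SE 0.41), adjusted p = 0.0115) against Con, and these calls were kept with any 1 library left out. Against NCAC it rose by 2.50 (SE 0.28) and 2.48 (SE 0.43) (adjusted p = 0.00126 and 0.0266), and the latter was lost, at up to 0.0951, without any 1 of CAC replicates 1, 4, 5, 6 and 7 and NCAC replicates 1, 2, 4 and 5.

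Because of the shared sequence, the sum of C4a and C4b was tested as 1 value with an exact two-sided permutation test, adjusted over 12 comparisons. The sum rose against Con by 2.04 on the log2 scale at 4 weeks (adjusted p = 0.0476, with 3 of 5 CAC libraries above all Con libraries), by 3.06 at 6 weeks (adjusted p = 0.0238, 5 of 5) and by 2.82 at 8 weeks (adjusted p = 0.00758, 7 of 7). Against NCAC it rose by 2.25, 3.02 and 2.83 at 4, 6 and 8 weeks (exact permutation, adjusted p = 0.0381, 0.0238 and 0.00758). At 2 weeks the difference from Con was 0.93 (exact permutation, adjusted p = 0.19). The unadjusted p cannot go below 0.00794 with 5 libraries against 5, or below 0.00126 with 7 against 5. At 4 weeks the call against Con was lost without any 1 library except CAC replicate 1 and Con replicate 1, with adjusted p-values up to 0.0794, and against NCAC without CAC replicate 2, 3, 4 or 5 (0.0571). C4b alone did not pass with limma at 4 weeks, where p was adjusted over 14576 genes instead of 12 comparisons. As C4a made up at most 6.05% of the sum, the sum and C4b are nearly the same values.

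**Figure D2:**
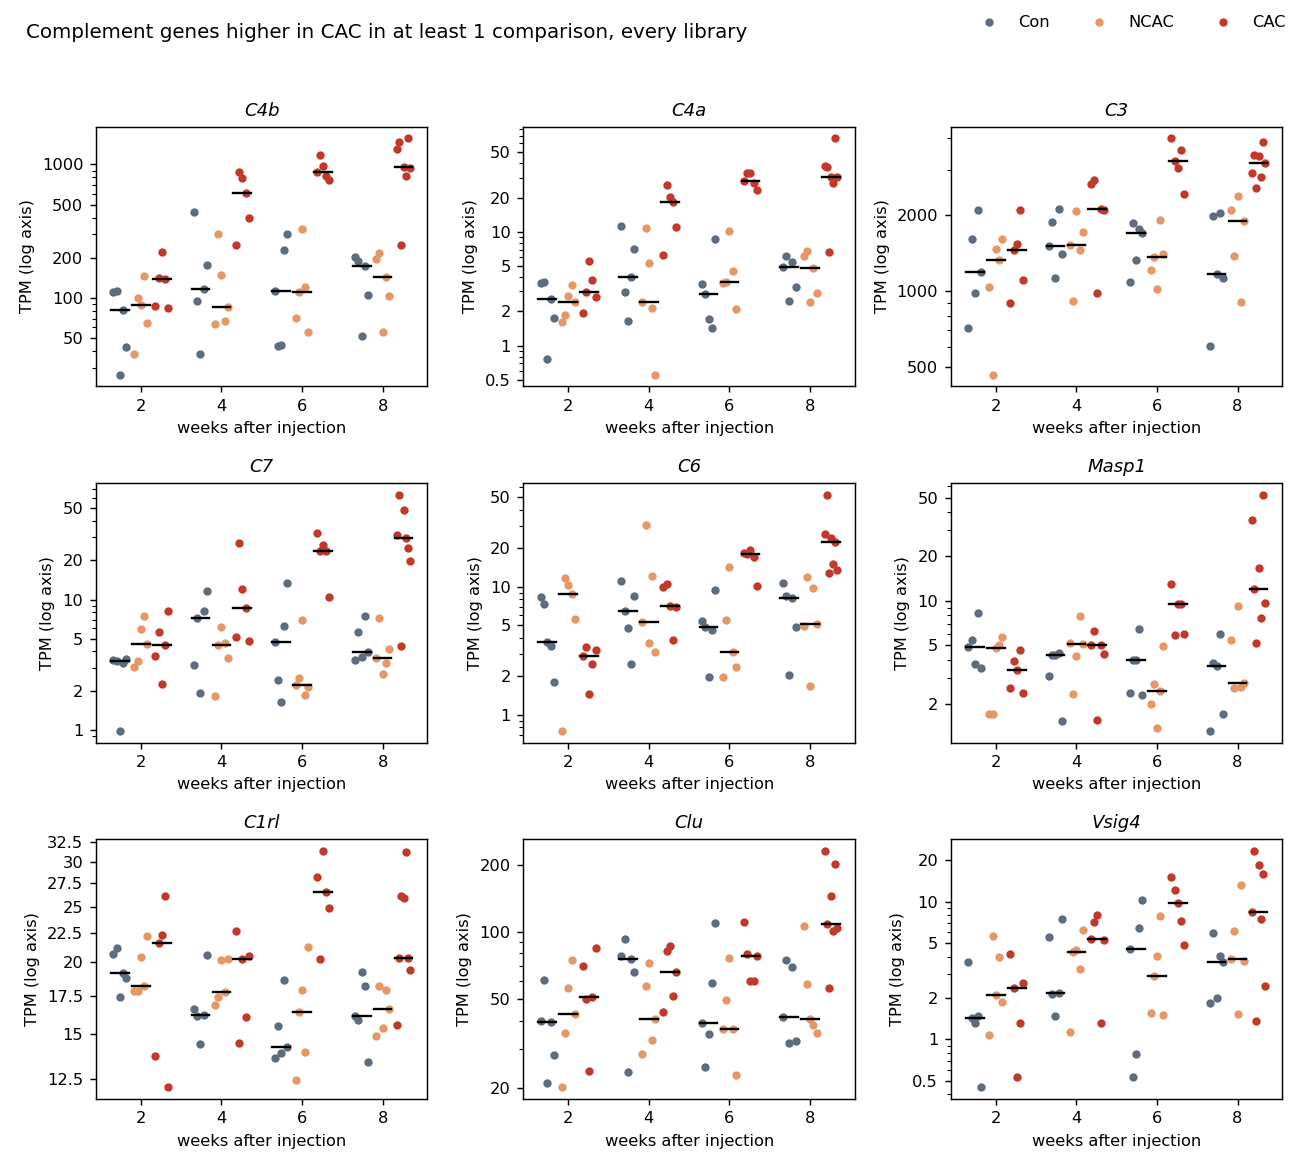
TPM (log axis) of 9 complement genes that rose in CAC in at least 1 comparison, by week after injection. Each point is 1 library, black bars are group medians, and the arms are Con, NCAC and CAC from left to right; the C4b, C4a and C3 points of CAC at 6 weeks lie above all other points of that week.

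Cfb and C2 lie beside the C4 genes in the same stretch of 169.9 kb on chromosome 17, in the class III region of the major histocompatibility complex, with 0.085 kb between them and 32.91 kb between C4a and Cfb. Cfb encodes factor B, the protease of the alternative pathway, and C2 its counterpart in the classical pathway. Neither passed the test in any comparison. Cfb in CAC at 6 weeks was 151, 138, 148, 133 and 147 TPM, in Con 103, 40.2, 50.9, 143 and 146 TPM and in NCAC 36.3, 85.3, 162, 63.4 and 68.4 TPM. The CAC values were close together and lay within the range of NCAC, and 3 of 5 were above all Con values (log2 change 0.75 (SE 0.33) against Con, limma adjusted p = 0.515, and 0.95 (SE 0.30) against NCAC, adjusted p = 0.0859). At 8 weeks Cfb was 66.1, 85.6 and 143 TPM (lowest, median and highest) in CAC, 135, 209, 45.9, 105 and 33 TPM in Con and 157, 113, 62, 90.1 and 91.4 TPM in NCAC, and the change against Con was 0.13 (SE 0.41) (adjusted p = 0.914).

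C2 ranged from 38.5 to 73.4 TPM in CAC and from 31.5 to 158 TPM in Con at 6 weeks, and from 29.6 to 69.3 and 32.8 to 129.7 TPM at 8 weeks. Its change for the mean of 6 and 8 weeks was -0.41 (SE 0.25) against Con (limma adjusted p = 0.287). The ratio of C4b to Cfb, chosen after the values were seen and given with no test, was 5.19 to 8.49 in CAC at 6 weeks, 0.864 to 2.05 in Con and 0.805 to 2.04 in NCAC. After 8 weeks it was 3.72 to 22.9 in CAC, 0.903 to 3.20 in Con and 0.901 to 1.91 in NCAC. The groups did not overlap in either week, so within single libraries the C4b level stood higher over that of its neighbour in CAC than elsewhere.

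**Figure D3:**
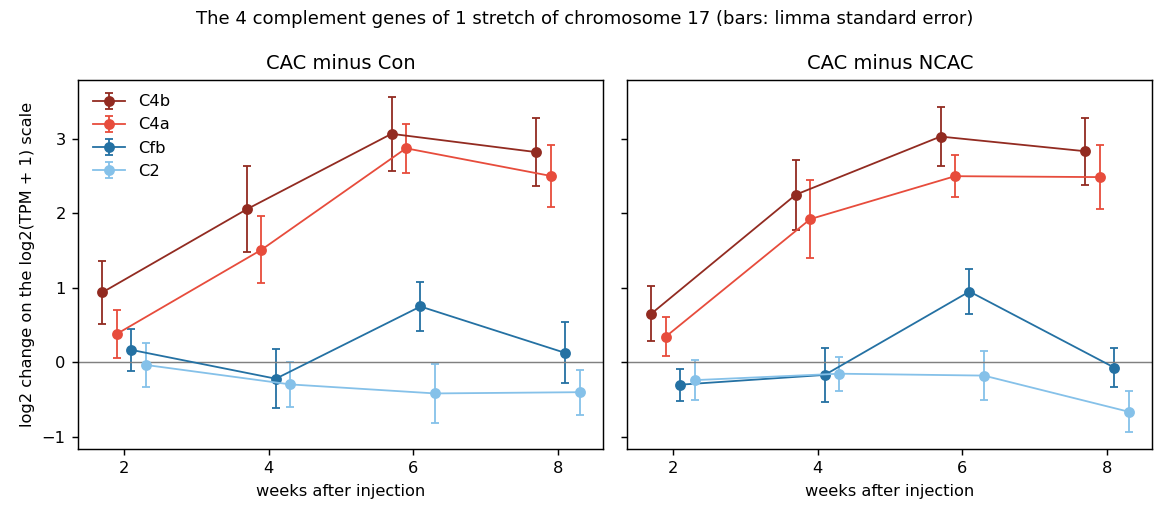
Log2 change of C4b, C4a, Cfb and C2 on the log2(TPM + 1) scale by week, CAC minus Con on the left and CAC minus NCAC on the right, with limma standard errors as bars. C4b and C4a lie at 3.06 and 2.87 at 6 weeks against Con, while Cfb and C2, which passed in no comparison, lie at 0.75 and -0.42.

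C3 (chr17:57203970-57228136, minus strand), the protein on which all pathways meet, had the highest mean level of the 30 genes, 1844 TPM over all libraries. In CAC at 6 weeks it was 3998, 3241, 3049, 3599.9 and 2414 TPM, in Con 1084, 1851, 1322, 1763 and 1689.6 TPM and in NCAC 1209, 1362, 1023, 1901 and 1400.1 TPM. All 5 CAC libraries were above all others of that week. C3 rose by 1.25 (SE 0.19) against NCAC (limma adjusted p = 0.00482), and its change against Con was 1.09 (SE 0.20) (adjusted p = 0.0531), which missed the threshold. In the 8 week tissue it was 2542, 3205 and 3854 TPM (lowest, median and highest) in CAC, 608, 1974, 1168, 2027 and 1122 TPM in Con and 2092, 1372, 2362, 909 and 1891 TPM in NCAC, again without overlap. C3 nevertheless did not pass against NCAC in that week. C3 rose 2.49-fold against Con at 8 weeks (3166 ± 442 TPM, SD, n = 7, against 1379.8 ± 608 TPM, SD, n = 5; limma adjusted p = 0.0242). This call was lost, at up to 0.0589, without CAC replicate 4, 6 or 7 or Con replicate 5. Averaged over both weeks the rise was 1.20 (SE 0.21) (adjusted p = 3.95e-05), and 1.19 without the uroplakin libraries (adjusted p = 0.00589).

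The C3 promoter carries a C/EBP letter pattern, a binding motif of factors that act in the acute phase response and in adipocytes. The sequence is RefSeq's for GRCm38.p6, chr17:57228137-57228386 on the minus strand, the 250 bases before the start, 5′ to 3′, and the capitals mark TTGCGAAA, a match to TTGCNNAA at 45 to 38 bases before the start.
C3: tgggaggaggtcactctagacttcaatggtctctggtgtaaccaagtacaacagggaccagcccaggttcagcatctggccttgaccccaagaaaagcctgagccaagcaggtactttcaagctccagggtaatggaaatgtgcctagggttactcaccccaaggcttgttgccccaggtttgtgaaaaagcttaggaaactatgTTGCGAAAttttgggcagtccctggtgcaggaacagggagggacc
RefSeq promoters were found for 19 of the 30 genes, 21 promoters in all. In the 250 bases before the start, on both strands, TTGCNNAA occurred in 4 of these 21, beside 9.56% of 32851 mouse promoters, and the STAT pattern TTCNNNGAA in 1, beside 7.02%. The interferon response pattern GAAANNGAA occurred in 2, beside 7.13% of all, and the NF-kappaB consensus in 1, beside 7.25%. The glucocorticoid receptor pattern ACANNNTGT, in 5.84% of all, occurred in 0 of the 21. Matches to different patterns overlapped in 0 of the 21. A match describes the letters in this window only.

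Cfp, which encodes properdin, the stabilizer of the alternative pathway's convertase, ranged from 14.2 to 107 TPM over the 62 libraries and passed in no comparison. Its change for the mean of 6 and 8 weeks was -0.26 (SE 0.26) against Con (limma adjusted p = 0.563). Of the 6 central genes, C3, C4a and C4b therefore rose and C2, Cfb and Cfp did not pass. Hepatocyte markers, a check for RNA of the organ that makes most serum complement, summed to 3.80 to 8.46 TPM in CAC at 6 weeks and 3.25 to 14.1 TPM at 8 weeks, against 6.97 to 363 and 5.48 to 18.6 TPM in Con, and Ttr was listed at 0 in 28 of the 62 libraries.

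The terminal components C6 and C7 rose as well, while the other genes of the membrane attack complex were near 0 or did not pass. C6 (chr15:4727175-4814967, plus strand) and C7 (chr15:4988762-5063740, minus strand) lie 173.8 kb apart on chromosome 15. C7 in CAC at 6 weeks was 32.3, 23.5, 26.1, 23.5 and 10.5 TPM, in NCAC 2.21, 2.52, 7.01, 1.85 and 2.14 TPM and in Con 4.75, 2.40, 1.65, 6.31 and 13.5 TPM. CAC lay above all NCAC libraries, but its replicate 5 was below Con replicate 5. C7 rose by 2.58 (SE 0.33) against NCAC (limma adjusted p = 0.00304), a call kept in all 7 alternative settings and with any 1 library left out, and its change against Con was 2.03 (SE 0.44) (adjusted p = 0.0938). At 8 weeks C7 was 4.41, 29.4 and 63.8 TPM (lowest, median and highest) in CAC, 3.45, 5.64, 3.65, 7.46 and 3.94 TPM in Con and 3.54, 7.25, 2.68, 3.25 and 4.20 TPM in NCAC. Replicate 3 of CAC (4.41 TPM) lay among the other arms and the other 6 above them.

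C7 rose 4.69-fold against Con at 8 weeks (31.8 ± 19.4 TPM, SD, n = 7, against 4.83 ± 1.71 TPM, SD, n = 5; limma adjusted p = 0.0285) and by 2.41 (SE 0.49) against NCAC (adjusted p = 0.0498). The call against Con was lost, at up to 0.0647, without CAC replicate 4, 5, 6 or 7 or Con replicate 1, 2 or 5, and that against NCAC, at up to 0.158, without any 1 library except CAC replicate 3 and NCAC replicate 3. C6 was 18.6, 18.2, 19.3, 17.1 and 10.2 TPM in CAC at 6 weeks, 5.42, 4.83, 1.97, 4.62 and 9.51 TPM in Con and 1.99, 5.52, 14.3, 3.10 and 2.38 TPM in NCAC. All 5 CAC values were above Con, and NCAC replicate 3 lay within the range of CAC. C6 rose by 1.71 (SE 0.40) against NCAC (adjusted p = 0.0365, lost at up to 0.0912 without any 1 library except CAC replicate 5 and NCAC replicate 3), and its change against Con was 1.58 (SE 0.31) (adjusted p = 0.0573).

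At 8 weeks C6 was 13, 22.4 and 52.7 TPM (lowest, median and highest) in CAC, 10.7, 8.53, 2.05, 8.26 and 4.89 TPM in Con and 4.98, 12, 1.69, 9.85 and 5.12 TPM in NCAC, without overlap. It rose 3.13-fold against Con (log2 change 1.65 (SE 0.38), limma adjusted p = 0.0359), lost at up to 0.0809 without CAC replicate 1, 4, 5, 6 or 7 or Con replicate 2, 4 or 5. Its change against NCAC at 8 weeks, 1.73, missed the threshold (limma adjusted p = 0.0773). In the mean of 6 and 8 weeks, C7 rose by 2.13 (SE 0.31) and C6 by 1.61 (SE 0.33) against Con (adjusted p = 1.64e-06 and 0.00052), and by 2.20 and 1.66 without the uroplakin libraries (adjusted p = 0.000877 and 0.0269). C8a, C8b, C9 and Hc, which encodes C5, reached at most 0.785, 0.393, 0.726 and 0.461 TPM in any library and were not tested. C8g, the gamma chain of C8, was at 1.91 to 6.70 TPM and changed by 0.06 (SE 0.14) in the mean of 6 and 8 weeks against Con (limma adjusted p = 0.804).

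The promoters of this pair, RefSeq's for GRCm38.p6, are shown because both genes rose. C7 (chr15:5063774-5064023, minus strand) holds the STAT match TTCCCAGAA, in capitals, at 164 to 156 bases before the start, and C6 (chr15:4726960-4727174, plus strand, 215 bases) holds none of the 5 patterns.
C7: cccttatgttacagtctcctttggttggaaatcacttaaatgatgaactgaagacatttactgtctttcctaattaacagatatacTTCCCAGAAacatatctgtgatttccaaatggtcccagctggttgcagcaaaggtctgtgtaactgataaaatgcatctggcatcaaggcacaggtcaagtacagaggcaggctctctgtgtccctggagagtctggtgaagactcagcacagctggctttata
C6: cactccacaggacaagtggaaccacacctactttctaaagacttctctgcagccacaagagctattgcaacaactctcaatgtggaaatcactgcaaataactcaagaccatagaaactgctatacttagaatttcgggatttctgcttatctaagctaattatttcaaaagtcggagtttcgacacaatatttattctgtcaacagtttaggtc

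Among the 8 recognition genes and proteases, Masp1 and C1rl rose, Colec12 fell, and the C1q, C1r and C1s genes did not pass. Masp1 (chr16:23449417-23520815, minus strand) encodes a protease of the lectin pathway and also MASP-3, which activates factor D. In CAC at 6 weeks it was 13, 5.84, 9.54, 9.60 and 5.94 TPM, in Con 2.39, 4.00, 3.99, 6.50 and 2.31 TPM and in NCAC 2.00, 2.76, 1.38, 2.44 and 4.95 TPM. CAC lay above all NCAC libraries and overlapped Con. Masp1 rose by 1.41 (SE 0.27) against NCAC (limma adjusted p = 0.0156), and its change against Con was 1.03 (SE 0.28) (adjusted p = 0.207). At 8 weeks it was 5.17, 12 and 52.4 TPM (lowest, median and highest) in CAC, 1.32, 3.82, 3.63, 5.95 and 1.72 TPM in Con and 5.43, 2.59, 9.28, 2.63 and 2.79 TPM in NCAC. It did not pass against NCAC in that week. Its rise over Con at 8 weeks was 2.00 (SE 0.50), or 4.00-fold (adjusted p = 0.0462), with 6 of 7 CAC libraries above all Con libraries, and was lost at up to 0.106 without any 1 library except CAC replicate 3. For the mean of 6 and 8 weeks the rise was 1.51 (SE 0.27) (adjusted p = 5.41e-05) and was kept with any 1 library left out.

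C1rl (chr6:124493113-124510643, plus strand) encodes a protease related to C1r and lies in a cluster with C1ra and C1s1. It was 28.2, 20.3, 31.3, 26.5 and 24.9 TPM in CAC at 6 weeks, 13.6, 15.5, 13.9, 18.6 and 14.2 TPM in Con and 12.5, 16.4, 17.9, 13.9 and 21.2 TPM in NCAC. CAC was above all Con libraries, and 1 NCAC library lay within its range. C1rl rose by 0.66 (SE 0.16) against NCAC (limma adjusted p = 0.036), but with median-ratio rescaling or without the mitochondrially encoded genes its adjusted p was 0.106 and 0.0823, and it was up to 0.0903 without any 1 of CAC replicates 1, 3, 4 and 5 and NCAC replicates 1, 2 and 4. The 8 week values were 15.6, 20.4 and 31.1 TPM (lowest, median and highest) in CAC, 16.1, 15.9, 19.2, 18.2 and 13.4 TPM in Con and 14.9, 18.2, 15.4, 17.9 and 16.6 TPM in NCAC, and it passed in neither comparison. The rise for the mean of 6 and 8 weeks against Con, 0.58 (SE 0.10) (adjusted p = 8.02e-05), was kept in all 7 settings. C1ra and C1s1, the classical pathway's proteases next to C1rl on chromosome 6, changed by -0.18 (SE 0.31) and -0.38 (SE 0.36) in the same comparison (adjusted p = 0.744 and 0.53).

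C1qa, C1qb and C1qc, the 3 chains of C1q within 18.68 kb of chromosome 4, are known as genes of tissue macrophages. C1qa was 295, 317, 326, 199 and 150.2 TPM in CAC at 6 weeks, 124, 72.9, 45.3, 239 and 554 TPM in Con and 162, 239, 336, 133 and 66.7 TPM in NCAC. After 8 weeks it was 83.5, 295 and 492 TPM (lowest, median and highest) in CAC, 221, 413, 96.3, 149.8 and 199 TPM in Con and 215, 238, 67.1, 303 and 144 TPM in NCAC. The groups overlapped in both weeks. Against Con the changes of C1qa, C1qb and C1qc for the mean of 6 and 8 weeks were 0.49 (SE 0.33), 0.50 (SE 0.33) and 0.44 (SE 0.32) (limma adjusted p = 0.347, 0.339 and 0.396). The summed level of 9 macrophage markers was 402 to 716 TPM in CAC and 162 to 1963 TPM in Con at 6 weeks, and 215 to 1122 and 321 to 932 TPM at 8 weeks.

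Colec12, which encodes a membrane collectin and scavenger receptor, was 57.1, 73.3, 63.6, 40.9 and 29.1 TPM in CAC at 6 weeks, 81, 52.1, 43.4, 115 and 182 TPM in Con and 63.7, 86, 107, 81.9 and 58 TPM in NCAC. In the 8 week tissue it was 32.4, 58.7 and 83.2 TPM (lowest, median and highest) in CAC, 79.1, 132, 50.9, 125 and 71.4 TPM in Con and 128, 114, 44.2, 109.9 and 67 TPM in NCAC. The arms overlapped in each week, and no single week passed. In the late mean (6 and 8 weeks) it fell by 0.72 against Con (limma adjusted p = 0.0311) and by 0.67 against NCAC (adjusted p = 0.0456). Without 1 of CAC 6 week replicates 4 and 5, Con 6 week replicates 4 and 5, CAC 8 week replicate 7 and Con 8 week replicates 2 and 4, the call against Con was lost, at up to 0.104. That against NCAC was lost, at up to 0.107, without CAC 6 week replicate 1, 4 or 5, NCAC 6 week replicate 2, 3 or 4, CAC 8 week replicate 1, 3, 5 or 7, or NCAC 8 week replicate 1, 2 or 4. Without the uroplakin libraries the change against Con was -0.72 (adjusted p = 0.23). Of the 8 fibroblast and progenitor markers, 5 fell in the same comparison, and their part in the Colec12 change was not tested.

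Of the 5 receptors, only Vsig4 passed, and only in means over weeks against Con. Vsig4 (chrX:96247203-96293438, minus strand) encodes CRIg, a receptor for C3 fragments on resident macrophages. It was 15.1, 12.1, 9.78, 7.25 and 4.87 TPM in CAC at 6 weeks, 4.52, 0.53, 0.78, 6.40 and 10.3 TPM in Con and 1.55, 2.91, 4.03, 7.95 and 1.50 TPM in NCAC. At 8 weeks it was 1.36, 8.40 and 23.5 TPM (lowest, median and highest) in CAC, 1.84, 5.93, 1.99, 4.01 and 3.66 TPM in Con and 3.82, 6.12, 1.53, 13.3 and 3.73 TPM in NCAC. The arms overlapped in both weeks. Vsig4 rose by 1.20 (SE 0.36) for the mean of 6 and 8 weeks against Con (limma adjusted p = 0.0175), was at 1.15 without the uroplakin libraries (adjusted p = 0.215), and changed by 1.01 (SE 0.36) against NCAC (adjusted p = 0.0504). Among the 9 macrophage markers, 2 rose in the comparison with Con, and their part in the Vsig4 change was not tested.

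C3ar1, the receptor of C3a, was 7.67, 8.55, 5.74, 6.94 and 3.93 TPM in CAC at 6 weeks, 5.60, 2.87, 1.77, 8.31 and 24.5 TPM in Con and 4.30, 5.59, 10.3, 4.77 and 3.55 TPM in NCAC. The 8 week values were 1.43, 5.13 and 11.2 TPM (lowest, median and highest) in CAC, 9.86, 17, 3.37, 7.32 and 6.43 TPM in Con and 7.91, 10.4, 3.90, 8.49 and 4.66 TPM in NCAC. The arms overlapped, and the change for the mean of both weeks against Con was -0.23 (SE 0.27) (limma adjusted p = 0.631). C5ar1, the main receptor of C5a, ranged from 1.54 to 26.8 TPM over all libraries and changed by 0.56 (SE 0.28) (adjusted p = 0.18). Itgb2, the shared beta chain of the leukocyte integrins that bind C3 fragments, ranged from 3.01 to 79.3 TPM and changed by -0.34 (SE 0.32) (adjusted p = 0.524). C5ar2, a further C5a receptor, was between 0.0631 and 1.43 TPM and was not tested.

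**Figure D4:**
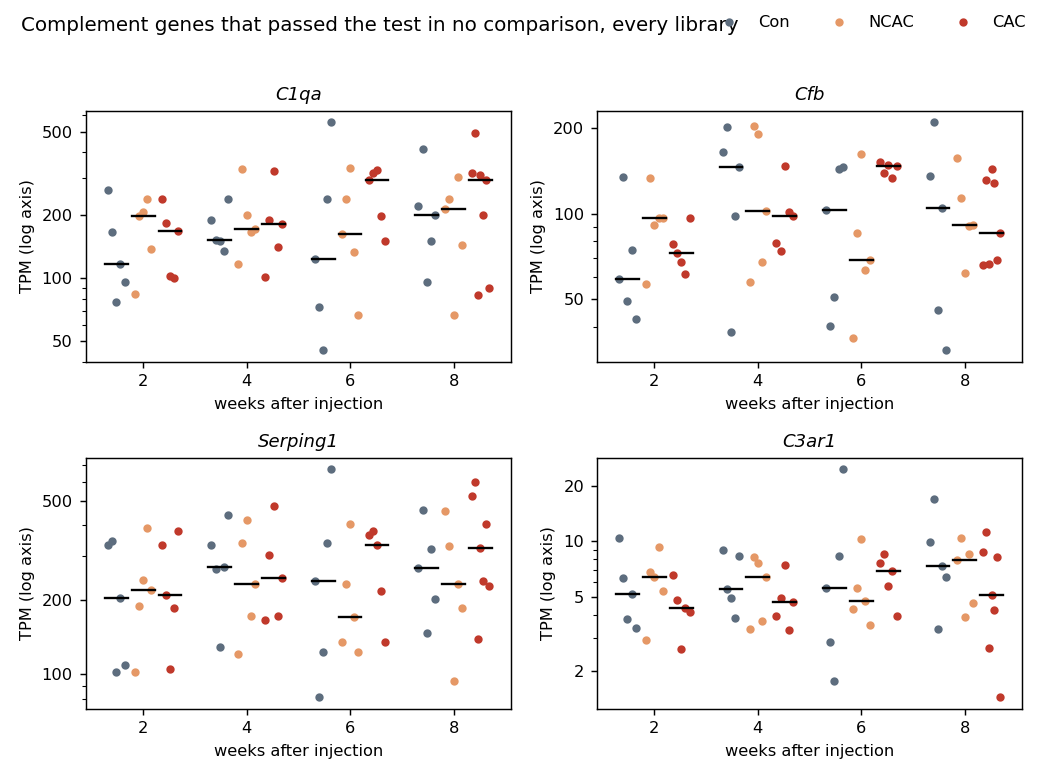
TPM (log axis) of C1qa, Cfb, Serping1 and C3ar1, which passed the test in no comparison, by week after injection. Each point is 1 library, black bars are group medians, and the arms are Con, NCAC and CAC from left to right; the points of CAC overlap those of Con or NCAC in every week.

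The 9 regulators moved in both directions. Cd55 (chr1:130439027-130462744, minus strand) encodes decay-accelerating factor, which takes apart the C3 convertases on host cells, and it was lower in CAC. At 6 weeks it was 10.3, 13.6, 11.2, 8.91 and 11.9 TPM in CAC, 27.7, 16.9, 17.4, 31.2 and 47 TPM in Con and 25.2, 37.8, 40.7, 20.6 and 15.9 TPM in NCAC. All 5 CAC libraries were below all 10 others. Cd55 fell by 1.18 (SE 0.24) against NCAC (limma adjusted p = 0.0199, lost at up to 0.0564 without CAC replicate 1 or NCAC replicate 2), and its change against Con was -1.16 (SE 0.26) (adjusted p = 0.108). After 8 weeks it was 12.2, 14.8 and 22.1 TPM (lowest, median and highest) in CAC, 32, 58, 18, 34.2 and 29.6 TPM in Con and 38.5, 39.1, 8.84, 41.5 and 25.3 TPM in NCAC. Con replicate 3 and NCAC replicate 3 lay within or below the CAC range, and the change against Con was -0.96 (SE 0.25) (adjusted p = 0.0511).

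In the late mean Cd55 fell by 1.06 (SE 0.23), 2.09-fold lower than in Con (limma adjusted p = 0.00089), and by 0.95 against NCAC (adjusted p = 0.0028). Both were kept with any 1 library left out. Without the uroplakin libraries the change was -1.18 against Con (adjusted p = 0.0213) and -0.97 against NCAC (adjusted p = 0.0545). Fibroblast and progenitor markers fell in the same comparison, 5 of 8 against Con and 4 of 8 against NCAC, with sums of 176 to 433 TPM in CAC and 257 to 3322 TPM in Con at 6 weeks, and mesothelial markers fell in 4 of 6 against Con. Their part in the Cd55 change was not tested. The promoter, RefSeq's for GRCm38.p6 (chr1:130462745-130462994, minus strand), is shown as that of the regulator that fell most, and it holds none of the 5 patterns.
Cd55: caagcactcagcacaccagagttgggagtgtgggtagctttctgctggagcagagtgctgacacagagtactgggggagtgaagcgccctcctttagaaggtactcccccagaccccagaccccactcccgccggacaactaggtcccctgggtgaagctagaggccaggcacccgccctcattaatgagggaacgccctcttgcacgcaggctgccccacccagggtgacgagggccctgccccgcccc

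Cd59a (chr2:104095801-104115354, plus strand) encodes the inhibitor of the membrane attack complex. It was 84.6, 99.5, 89.7, 75.4 and 83.4 TPM in CAC at 6 weeks, 132, 103, 95.7, 126 and 97.4 TPM in Con and 87.2, 97.8, 165, 83.2 and 101 TPM in NCAC. In the 8 week tissue it was 65.5, 82.9 and 103 TPM (lowest, median and highest) in CAC, 161, 94.1, 104, 115 and 89.2 TPM in Con and 99.3, 131, 78.1, 139 and 132 TPM in NCAC. The arms overlapped in both weeks. In the mean of 4 weeks Cd59a fell by 0.30 against Con and by 0.32 against NCAC, kept with any 1 library left out. Both calls were lost without the uroplakin libraries, and that against Con also with median-ratio rescaling. For the mean of 6 and 8 weeks Cd59a fell by 0.36 against Con (limma adjusted p = 0.0376). This call was lost with median-ratio rescaling (adjusted p = 0.139), without the uroplakin libraries (0.125), without the filter on low values and with the replicate block. It was also lost, at up to 0.104, without CAC 6 week replicate 1, 4 or 5, Con 6 week replicate 1 or 4, CAC 8 week replicate 2 or 4, or Con 8 week replicate 1 or 4. The other membrane regulators did not pass: Cd46, a cofactor of factor I, was between 0.68 and 3.77 TPM, and Cr1l, which encodes the rodent regulator Crry, between 16.7 and 32.2 TPM, with changes of 0.16 (SE 0.13) and -0.10 (SE 0.10) (adjusted p = 0.447 and 0.584).

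Clu (chr14:65968483-65981547, plus strand), which encodes clusterin, a secreted chaperone that also blocks the terminal complex, was the soluble regulator that rose against Con. In CAC at 8 weeks it was 55.9, 108 and 231 TPM (lowest, median and highest), in Con 41.7, 75.1, 31.9, 69.5 and 32.5 TPM and in NCAC 106, 58.6, 40.8, 38.3 and 35.1 TPM. Of the 7 CAC libraries 6 were above all Con libraries. At 6 weeks it was 111, 80.0, 60.4, 60.2 and 77.8 TPM in CAC, 39.3, 24.8, 34.8, 58.8 and 109 TPM in Con and 36.7, 49.6, 76.7, 36.9 and 22.9 TPM in NCAC, with overlap. Against NCAC Clu passed in neither of these weeks alone and rose in their mean, by 1.06. Clu rose 2.59-fold against Con at 8 weeks (log2 change 1.37 (SE 0.34), limma adjusted p = 0.0447), lost at up to 0.106 without any 1 library except CAC replicate 3. In the late mean it rose by 1.03 (SE 0.26) (adjusted p = 0.00515), and was at 0.78 without the uroplakin libraries (adjusted p = 0.265).

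Serping1, the C1 inhibitor gene, was 366, 379, 334, 216 and 135 TPM in CAC at 6 weeks, 238, 80.8, 123, 338 and 672 TPM in Con and 135, 232, 406, 170.3 and 124 TPM in NCAC. At 8 weeks it was 139, 324 and 596 TPM (lowest, median and highest) in CAC, 270.0, 459, 147, 320.0 and 201 TPM in Con and 456, 330.1, 93.9, 231 and 186 TPM in NCAC. The arms overlapped, and the change for the mean of both weeks was 0.27 (SE 0.32) against Con (limma adjusted p = 0.63). Vtn, the vitronectin gene, was 8.65, 9.24, 13.5, 11.2 and 11.7 TPM in CAC at 6 weeks, 13.4, 9.71, 12.4, 18.2 and 21 TPM in Con and 9.19, 13.5, 15.5, 10.6 and 8.81 TPM in NCAC. The 8 week values were 7.75, 10.6 and 14.2 TPM (lowest, median and highest) in CAC, 15.7, 14.1, 7.51, 13.3 and 11.6 TPM in Con and 14.3, 16.1, 10.4, 11 and 14.2 TPM in NCAC. It overlapped between arms and fell only in the mean of 4 weeks, by 0.31 against Con (adjusted p = 0.0348, up to 0.0675 without 1 of CAC 2 week replicates 1 and 3, Con 2 week replicates 3 and 4, CAC 4 week replicates 2 and 4, Con 4 week replicate 1, CAC 6 week replicate 1, Con 6 week replicates 4 and 5 and Con 8 week replicates 1 and 2).

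Cfi (chr3:129835884-129875332, plus strand) encodes factor I, the protease that inactivates C3b and C4b. It was 1.84, 3.41, 2.47, 1.54 and 0.854 TPM in CAC at 6 weeks, 0.193, 0.418, 1.42, 0.158 and 0.077 TPM in NCAC and 0.0535, 0.0506, 0.0497, 0.85 and 1.77 TPM in Con. After 8 weeks it was 0.107, 1.73 and 12.8 TPM (lowest, median and highest) in CAC, 0.766, 12.4, 0.0503, 0.258 and 0.26 TPM in Con and 14.8, 0.454, 0.0554, 0.0588 and 0.0537 TPM in NCAC. It rose by 1.07 (SE 0.27) against NCAC at 6 weeks (limma adjusted p = 0.043), at low TPM and with overlap, and this was lost at up to 0.106 without any 1 library except CAC replicate 5 and NCAC replicate 3. In 8 of the 62 libraries, from all 3 arms, Cfi was between 8.05 and 21.9 TPM, and in the other 54 between 0 and 3.41 TPM. The summed epithelial genes Epcam, Krt8, Krt18, Wap and Csn3 had a median of 181 TPM (7.45 to 1092) in those 8 and 14.7 TPM (2.10 to 209.9) in the 54. Wap and Csn3 were listed at 0 in 59 and 56 of the 62 libraries, so the sum came from Epcam, Krt8 and Krt18 and is not particular to mammary epithelium. The part of epithelial cells in the Cfi levels was not tested.

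C1qbp, a mostly mitochondrial protein that also binds C1q, was 159.9, 147, 136, 155 and 139.8 TPM in CAC at 6 weeks, 111, 116, 98.1, 113 and 107 TPM in NCAC and 107, 108, 119, 138 and 163 TPM in Con. All CAC libraries were above all NCAC libraries and overlapped Con. In the 8 week tissue it was 115, 145 and 163 TPM (lowest, median and highest) in CAC, 109, 101, 143, 106 and 112 TPM in NCAC and 105, 136, 119, 112 and 117 TPM in Con. It rose by 0.43 (SE 0.09) against NCAC at 6 weeks (limma adjusted p = 0.0255), where the median change of all genes was 0.13. With median-ratio rescaling, which moves that median to -0.01, the change was 0.27 (adjusted p = 0.235), and without CAC replicate 1, 2 or 4 or NCAC replicate 1, 2 or 4 the adjusted p was up to 0.0695. In the late mean it rose by 0.36 (SE 0.09) against NCAC (adjusted p = 0.00279) and changed by 0.24 (SE 0.09) against Con (adjusted p = 0.0583).

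**Figure D5:**
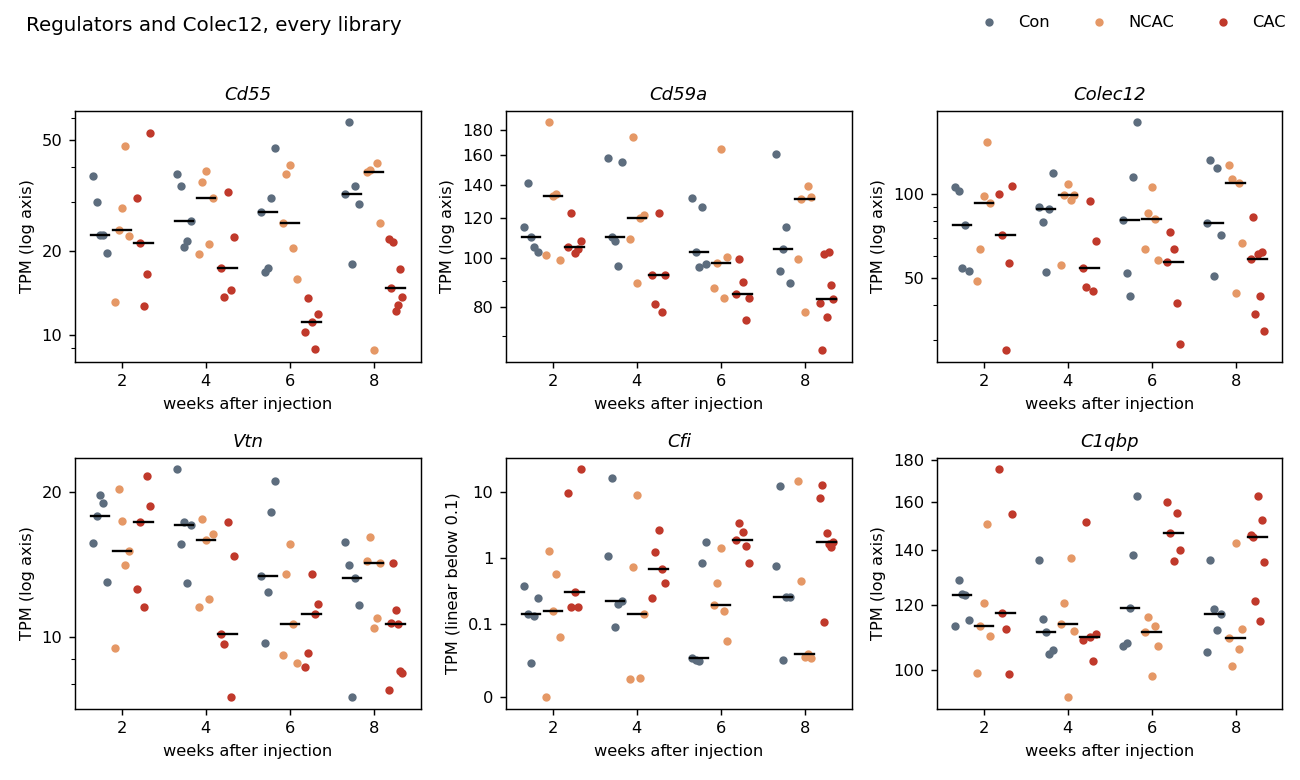
TPM of the regulators Cd55, Cd59a, Vtn, Cfi and C1qbp and of the collectin Colec12, by week after injection, on log axes (Cfi linear below 0.1 TPM). Each point is 1 library, black bars are group medians, and the arms are Con, NCAC and CAC from left to right; the 5 CAC points of Cd55 at 6 weeks lie below the 10 others, and single high points of Cfi occur in all arms.

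The early weeks gave no call among the 29 genes. With limma, 0 of 29 passed for CAC against Con at 2 weeks and at 4 weeks, where 0.00686% of all genes did in either week. An unadjusted p under 0.05 was found for 1 and 4 of the 29, beside 3.45% and 2.78% of all genes. Against NCAC 0 of 29 passed at 2 and 4 weeks, as did 0% of all genes. There 0 and 4 of the 29 had an unadjusted p under 0.05, beside 3.62% and 4.45% of all genes. C4b at 4 weeks had the largest change, 2.05 (SE 0.58) against Con (unadjusted p = 0.00479 with limma, adjusted p = 1), with 247, 879.8, 787, 609 and 394 TPM in CAC against 441, 94.1, 38.1, 116 and 175 TPM in Con. Replicate 1 of Con was above 2 of the CAC libraries there.

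The change of the CAC effect with time was tested as CAC minus Con at 6 and 8 weeks less the same at 2 and 4 weeks. Masp1 rose in this contrast, by 1.63 (SE 0.38) (limma adjusted p = 0.0298), and C4a, by 1.74 (SE 0.42) (adjusted p = 0.04), so 2 of 29 passed, beside 0.405% of all genes higher and 0.0274% lower. Masp1 in CAC was 2.38 to 4.64 TPM at 2 weeks and 1.55 to 6.25 TPM at 4 weeks, and in Con 3.51 to 8.34 and 1.53 to 4.41 TPM, with overlap in both weeks. C4b (1.45 (SE 0.54), adjusted p = 0.335), C6 (1.78 (SE 0.48), 0.0785) and C7 (1.50 (SE 0.44), 0.138) did not pass, so that for these a difference between early and late weeks was not shown. Both calls depended on single libraries: the count was 0 without 1 of CAC 2 week replicates 1 and 5, Con 2 week replicate 4, CAC 4 week replicate 3, Con 4 week replicate 4, CAC 6 week replicate 1, Con 6 week replicate 1 or Con 8 week replicates 1 and 5, and 4 without CAC 8 week replicate 3. The counts of all genes called in these refits are not given here.

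Tissue of NCAC and Con mice gave no call among these genes. With limma 0 of 29 passed at 2, 4, 6 and 8 weeks and in the mean of 4 weeks, and neither did any other gene (0% of all genes in each of the 5). With library weights, 445 of all genes passed in the mean of 4 weeks and 0 of the 29. None of the 29 had an unadjusted p under 0.05, which 234, 115, 205 and 181 of all genes had at the 4 weeks. The sum of C4a and C4b differed between NCAC and Con by -0.20 to 0.28 on the log2 scale (exact permutation, adjusted p = 0.794 to 0.976). In the mean of 4 weeks C4b changed by 0.03 (SE 0.27) and C3 by -0.01 (SE 0.15). A p that misses the threshold does not show that the arms are alike.

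Of 26 further complement genes listed, 25 were in the table and 11 were tested. Cfd rose against Con at 8 weeks, by 0.92 (SE 0.21) (limma adjusted p = 0.0373), and for the mean of 6 and 8 weeks, by 0.86 (SE 0.18) (adjusted p = 0.000782), and it was the most abundant of them, at 10468 to 48109 TPM. Against NCAC Cfd did not rise at 6 weeks, at 8 weeks or in their mean. Cd59b, a further mouse gene of the CD59 inhibitor, fell against NCAC at 6 weeks by 1.08 (adjusted p = 0.0333), in the same direction as Cd59a, next to which it lies. Cpn2, a subunit of the carboxypeptidase that trims C3a and C5a, rose for the mean of 6 and 8 weeks against NCAC, by 0.90 (SE 0.30) (adjusted p = 0.0336). The mannose-binding lectins Mbl1 and Mbl2 were listed at 0 in 54 and 52 of the 62 libraries.

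Leaving out the 16 uroplakin libraries removed every single-week call against Con and all but 1 against NCAC, in fits with 2 and 4 CAC libraries at 6 and 8 weeks. Calls among all genes fell in the same fits. At 8 weeks they went from 448 to 2 against Con and from 77 to 1 against NCAC, and the 6 week counts, also lower, are given below. The loss therefore cannot be read as particular to the complement genes. For the mean of 6 and 8 weeks against Con, C4b was then 2.69 (limma adjusted p = 0.00208) beside 2.94, C4a 2.50 beside 2.68, Masp1 1.59 beside 1.51 and C1rl 0.66 beside 0.58, all with an adjusted p under 0.05. C4b levels in CAC at 6 weeks were 762 to 1175 TPM in the 3 libraries over the uroplakin limit and 826 to 977 TPM in the other 2. At 8 weeks they were 819 to 1568 TPM in 3 and 247 to 1476 TPM in 4.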

How the data were processed

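RNA of white adipose tissue was sequenced in 62 libraries (Trizol extraction, stranded TruSeq mRNA libraries, NovaSeq), per the labels' protocols, which call the replicates biological and also mention a 3 week time point after LLC cells that no sample carries. The genome build was mm10, per the submitters' processing notes, while aligner, counter, annotation and read depth were not given in the sources used here. A single table of TPM values per gene symbol was deposited by the authors, in which 37 mitochondrially encoded genes take 17.2 to 44.4% of each library and 11783 to 14470 genes reach 1 TPM. Group and replicate number were read from each sample's description. No 2 libraries held the same values, the closest pair having r = 0.989 across genes.

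Values were tested as log2(TPM + 1) with limma 3.58.1 in R 4.3.3 (mean-variance trend, robust prior, two-sided). Genes entered if their mean was at least 0.5 TPM, less those without variation in a comparison, and p-values were adjusted over them by the Benjamini-Hochberg method with a threshold of 0.05. The 12 comparisons at 1 week used the 2 groups alone, and 6 contrasts over weeks used 12 group means fitted to all libraries. The scripts were tested on simulated data. Fold changes are on the log2(TPM + 1) scale and understate the change of low genes. The 30 genes, the marker lists and the tests were chosen with earlier results of these data known. All 30 are accounted for by role, with the values at 6 and 8 weeks of each library (lowest, median and highest for the 7 CAC libraries at 8 weeks) for genes that passed in any comparison and for C3, C1qa, C4b, Cfb, Serping1 and C3ar1. Positions come from GENCODE M21 (GRCm38). Alternatives were a pseudocount of 0.1 TPM, no filter, median-ratio rescaling, leaving out the mitochondrially encoded genes, the uroplakin libraries (summed Upk1a, Upk1b, Upk2 and Upk3a over 100 TPM) or each library in turn, a replicate block, 1 fit of all 62 libraries and library weights.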

Additional observations from a re-analysis of the deposited data

Results flagged for a closer look

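In groups of 4 to 10 libraries, 17 values of the named genes stood apart from the rest of their group, of 228 groups looked at for the highest and the lowest library, where chance gives about 1 in 20. In CAC at 8 weeks replicate 3 was low in C4b (247 TPM, the others 819 to 1568) and in C4a (6.71 TPM, the others 26.7 to 66.3). In CAC at 6 weeks replicate 5 was low in C6 (10.2 TPM, the others 17.1 to 19.3) and C7 (10.5 TPM, the others 23.5 to 32.3). In CAC at 4 weeks replicate 3 was low in C3 (980 TPM, the others 2084 to 2749) and Masp1 (1.55 TPM, the others 4.38 to 6.25), replicate 4 was low in Vsig4 (1.31 TPM, the others 5.26 to 8.05) and replicate 2 was high in C1qbp (151 TPM, the others 102 to 111).

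Cfi was high in single libraries of 4 groups without the cachectic cells: NCAC replicate 3 at 4 weeks (9.07 TPM, the others 0.0251 to 0.721), NCAC replicate 1 at 8 weeks (14.8 TPM, the others 0.0537 to 0.454), Con replicate 2 at 4 weeks (16.4 TPM, the others 0.0960 to 1.06) and Con replicate 2 at 8 weeks (12.4 TPM, the others 0.0503 to 0.766). NCAC replicate 3 at 6 weeks was high in C7 (7.01 TPM, the others 1.85 to 2.52) and in Cd59a (165 TPM, the others 83.2 to 100.6). Low values were found for Colec12 in NCAC replicate 1 at 4 weeks (55.9 TPM, the others 95.5 to 109), C7 in Con replicate 3 at 2 weeks (0.987 TPM, the others 3.26 to 3.5) and Clu in Con replicate 3 at 4 weeks (23.6 TPM, the others 65.9 to 93.1). The difference of CAC from Con was larger at 6 and 8 weeks than at 2 and 4 weeks for Masp1, by 1.63, and for C4a, by 1.74 on the log2 scale, with the test given above (limma adjusted p = 0.0298 and 0.0400).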

How the results depend on the processing

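Of 497 refits of the 71 single-gene results under another setting, 408 kept their direction and side of the threshold, as did 1618 of 1838 refits without 1 library, and none reversed. For the mean of 6 and 8 weeks the number of genes called stayed at 8 to 18 against Con and 8 to 16 against NCAC, and C1rl, Masp1, C3, C4a, C4b, C6 and C7 passed in both comparisons in all 7 settings. The single weeks were less stable. CAC against Con at 6 weeks, with 2 called (52 of all genes), gave 1 without the filter (33 of all genes). It gave 5 with median-ratio rescaling (4 higher, 1 lower, 188 of all genes) and 4 without mitochondrially encoded genes (3 higher, 1 lower, 118 of all genes). It gave 0 with the replicate block (9 of all genes), 0 without the uroplakin libraries (13) and 4 with 1 fit of all libraries (185). At 8 weeks, with 7 called (448 of all genes), it gave 3 without the filter (223 of all genes). It gave 3 with the block (30 of all genes) and 0 without the uroplakin libraries (2 of all genes). CAC against NCAC at 6 weeks, with 10 called (843 of all genes), gave 1 without the uroplakin libraries (62 of all genes). At 8 weeks, with 3 called (77 of all genes), it gave 1 without the filter (34 of all genes) and 5 with median-ratio rescaling (222). It gave 1 with the block (2 of all genes), 0 without the uroplakin libraries (1) and 7 with 1 fit of all libraries (611). Without the uroplakin libraries the mean of 4 weeks gave 6 against Con (13 before) and 3 against NCAC (11 before). Of all genes, 352 (1658 before) and 275 (1738 before) were called there. The late less early contrast, with 2 called (63 of all genes), gave 1 with a pseudocount of 0.1 TPM (46 of all genes). It gave 1 without the filter (55 of all genes), 4 with median-ratio rescaling (91) and 0 without mitochondrially encoded genes (43). It gave 1 with the block (36 of all genes), 0 without the uroplakin libraries (6) and 11 with library weights (1395). The cause of these changes was not tested, and the fits without the uroplakin libraries also have fewer libraries.

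Leaving out 1 library gave 1 to 5 calls for CAC against Con at 6 weeks (5 without Con replicate 5, 1 without any 1 CAC library or Con replicate 1 or 3) and 2 to 8 at 8 weeks (2 without CAC replicate 4, 6 or 7 or Con replicate 5, 3 without CAC replicate 5 or Con replicate 2, 4 without Con replicate 1 or 4). Against NCAC it gave 5 to 13 at 6 weeks (5 without CAC replicate 1 or NCAC replicate 2, 6 without CAC replicate 4 or NCAC replicate 1). At 8 weeks it gave 0 to 10: 10 without NCAC replicate 3, 6 without CAC replicate 3, 1 without CAC replicate 1, 5 or 6 or NCAC replicate 1, and 0 without CAC replicate 4 or 7 or NCAC replicate 2, 4 or 5. The late less early contrast gave 0 to 4. The counts of all genes called in these fits are not given here, so these differences cannot be read as particular to the complement genes. Without the uroplakin libraries the sum of C4a and C4b changed against Con by 1.75, 3.04 and 2.33 at 4, 6 and 8 weeks (exact permutation, adjusted p = 0.4, 0.143 and 0.143) and against NCAC by 2.25, 3.00 and 2.66 (adjusted p = 0.206, 0.143 and 0.0952), with too few libraries left to reach lower values at 6 weeks. At 4 weeks against Con, 3 CAC and 3 Con libraries were left, too few for this test to give an unadjusted p under 0.05. Without 1 library the sum at 4 weeks changed by 1.62 to 2.49 against Con and 2.06 to 2.61 against NCAC.

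Replicate numbers did not pair the libraries: over 60 same-number pairs the correlation of deviations was -0.648 to 0.573, 20 were over 0.1 and 15 libraries correlated best with their own number. The replicate block changed 14 of 71 results. Median-ratio rescaling moved the median change of all genes from 0.13 to -0.01 for CAC against NCAC and from -0.16 to 0.00 for NCAC against Con, both at 6 weeks. Without mitochondrially encoded genes the medians were -0.02 for CAC against NCAC at 6 weeks and, in the late mean, -0.06 (0.05 before). The split of all called genes moved the same way elsewhere: with those genes left out, 65 of 118 were higher against Con at 6 weeks (45 of 52 before, 131 of 188 with rescaling), 62 of 126 against NCAC at 8 weeks (50 of 77 before), 755 of 3187 and 1124 of 2692 in the mean of 4 weeks against Con and NCAC (764 of 1658 and 1002 of 1738 before), and 29 of 43 in the late less early contrast (59 of 63 before, 75 of 91 with rescaling).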

Other observations

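In CAC at 8 weeks, replicate 3 had the lowest level of the 7 libraries in each of the 7 genes that rose there against Con: C4b (247 TPM), C4a (6.71 TPM), C3 (2542 TPM), C6 (13 TPM), C7 (4.41 TPM), Masp1 (5.17 TPM) and Clu (55.9 TPM). It was also lowest in Vsig4 (1.36 TPM) and Cfi (0.107 TPM). Its Cd55 level of 21.5 TPM and its C1rl level of 26.1 TPM were not the lowest of the 7. This library was singled out after its values were seen. Without it, 8 of 29 genes were called against Con at 8 weeks and 6 of 29 against NCAC, beside 7 and 3 with it. With it, 448 and 77 of all genes were called. The counts of all genes without it are not given here, so the difference cannot be read as particular to the complement genes.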
